A study of Mus musculus with 18 samples.

Results

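The 9 genes described here make, break down or export glucose in the liver or carry its hormonal control, and were chosen by symbol: Pck1, G6pc, Fbp1, Pcx, Pklr, Slc2a2, Ppargc1a, Irs2 and Foxo1. They are 9 of the 21018 genes listed in at least 1 of 3 gene count tables, and all 9 were above 0 in each of the 18 libraries, with 3 to 43446 reads per gene and library. RNA-Seq libraries were made from whole liver of 6 male C57/B6J mice aged 12 weeks, with free access to food and water, whose livers were perfused with PBS and collected 4 hours after they were injected intraperitoneally. The 3 mice of the IL-1β group received 20 µg/Kg of this inflammatory cytokine and are called I9579, I9582 and I9583 after their label numbers, and the 3 saline mice are U9574, U9575 and U9576. Saline is the control for the injection. RNA of each mouse was split over 3 library kits, called Pico (stranded total RNA with enzymatic removal of ribosomal cDNA), V4 (unstranded, poly(A)) and TruSeq (stranded, poly(A)), so each kit holds 3 IL-1β and 3 saline libraries. A library held 4.02 to 4.13 M assigned reads (Pico), 12 to 12.4 M (V4) or 12.3 to 12.9 M (TruSeq), so raw counts of a gene can be set side by side within a kit. The kits also differed in RNA input, and TruSeq differed from Pico and V4 in read length, sequencer and time of sequencing. A kit difference cannot be told apart from those of these that apply to its pair of kits.

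Hepatocytes release glucose in the fasted state by breaking down glycogen and by gluconeogenesis, which runs glycolysis in reverse except at a few irreversible steps that have enzymes of their own. Pyruvate carboxylase (Pcx) and the cytosolic PEP carboxykinase (Pck1) bypass pyruvate kinase (Pklr), fructose-1,6-bisphosphatase (Fbp1) opposes phosphofructokinase, glucose-6-phosphatase (G6pc) releases free glucose, and this glucose crosses the plasma membrane through GLUT2 (Slc2a2). Glucagon raises transcription of this programme through CREB and the coactivator PGC-1α (Ppargc1a), while insulin, acting through the adaptor IRS2 (Irs2), holds the forkhead factor FOXO1 (Foxo1) out of the nucleus.

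The sequences just upstream of the transcription starts are shown for the 4 members that were lower after IL-1β in at least 2 kits and for Pck1, a classical target of glucagon whose counts overlapped between treatments. Each line gives 250 bases ending at the base before a RefSeq start, 5′ to 3′ on the gene's strand, taken from a table on GRCm38.p6 and found exactly once in mm9, the build of the count tables. Capitals mark matches to the motifs searched. The mm9 positions are chr11:101228780-101229029 on the plus strand for G6pc, chr3:28596575-28596824 (plus) for Slc2a2, chr3:88940295-88940544 (plus) for the downstream of 2 starts of Pklr, chr5:51958965-51959214 (minus) for Ppargc1a and chr2:172978324-172978573 (plus) for Pck1.
G6pc: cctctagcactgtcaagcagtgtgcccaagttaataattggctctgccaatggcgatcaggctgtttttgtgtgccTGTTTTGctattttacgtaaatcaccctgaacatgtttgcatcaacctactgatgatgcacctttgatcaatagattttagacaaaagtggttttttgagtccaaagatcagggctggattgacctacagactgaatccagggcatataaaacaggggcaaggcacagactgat
Slc2a2: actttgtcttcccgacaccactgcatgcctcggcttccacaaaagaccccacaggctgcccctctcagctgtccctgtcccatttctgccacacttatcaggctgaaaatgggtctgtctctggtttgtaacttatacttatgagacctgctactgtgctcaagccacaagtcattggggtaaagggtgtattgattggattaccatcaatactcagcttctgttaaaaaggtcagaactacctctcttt
Pklr: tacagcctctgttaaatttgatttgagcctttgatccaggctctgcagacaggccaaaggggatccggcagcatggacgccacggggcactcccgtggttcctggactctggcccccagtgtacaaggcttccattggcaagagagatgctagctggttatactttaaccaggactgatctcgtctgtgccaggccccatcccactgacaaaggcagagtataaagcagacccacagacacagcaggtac
Ppargc1a: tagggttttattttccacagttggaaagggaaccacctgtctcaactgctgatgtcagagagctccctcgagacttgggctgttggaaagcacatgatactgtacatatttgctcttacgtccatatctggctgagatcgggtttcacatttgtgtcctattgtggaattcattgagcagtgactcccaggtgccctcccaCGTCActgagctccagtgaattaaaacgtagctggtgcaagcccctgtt
Pck1: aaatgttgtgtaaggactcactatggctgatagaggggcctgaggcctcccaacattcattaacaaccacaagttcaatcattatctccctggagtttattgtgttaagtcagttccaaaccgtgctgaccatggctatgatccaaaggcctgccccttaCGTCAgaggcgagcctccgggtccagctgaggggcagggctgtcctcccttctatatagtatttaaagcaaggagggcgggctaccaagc

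Both strands of the 11 upstream windows of the 9 members were searched for 10 motifs. G6pc held the insulin response core TGTTTTG, 174 to 168 bases before its start, a motif present in 5.6% of 32536 windows of the same length, and Irs2 held it 37 to 31 bases before its start. The short cAMP response motif TGACG, present in 17.9% of windows, lay 90 to 86 bases before the start of Pck1 and 49 to 45 bases before that of Ppargc1a, on the opposite strand in both. The E-box CACGTG, in 6.04% of windows, occurred in Irs2 (44 to 39 bases before the start) and in the upstream of 2 windows of Pcx (248 to 243). No window of the members matched the full cAMP response element TGACGTCA (1.56% of windows), the forkhead core TGTTTAC (3.17%), the C/EBP motif TTGCGCAA (0.166%), the NF-κB motif GGANTTTCC (1.07%), the glucocorticoid motif AGAACA (16%), the HNF4 motif CAAAGTCCA (0.387%) or the STAT motif TTCNNNGAA (7.04%). The motif TGACG is also part of the full element, and both were counted separately. A match describes letters in a window, and Slc2a2, Pklr, Fbp1 and Foxo1 held none of these.

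Per kilobase of annotated exon, the saline TruSeq libraries placed the members in 3 tiers. Pck1 stood highest with 835 ± 236 (SD, n = 3) CPM (reads per M reads of the library) per kb, followed by Fbp1 with 499 ± 50.5, and their ranges did not meet. G6pc (133 ± 88.6), Pklr (110 ± 61.3), Slc2a2 (108 ± 14) and Pcx (98.8 ± 10.9) formed a middle tier whose ranges all overlapped. Foxo1 was at 9.5 ± 1.59, and Ppargc1a (1.12 ± 0.032) and Irs2 (1.05 ± 0.554) were lowest and overlapped. After IL-1β the middle tier spread out in TruSeq, with Pcx at 142 ± 9.75, Pklr at 33.7 ± 8.03, Slc2a2 at 21.4 ± 4.51 and G6pc at 16.6 ± 4.79 CPM per kb, so that Pcx no longer overlapped the others and G6pc moved from the third to the sixth place. Kits ordered the most abundant pair differently. In saline libraries Fbp1 reached 1370 ± 60 CPM per kb against 729 ± 224 for Pck1 in V4, and 349 ± 26.2 against 953 ± 300 in Pico.

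**Figure D1:**
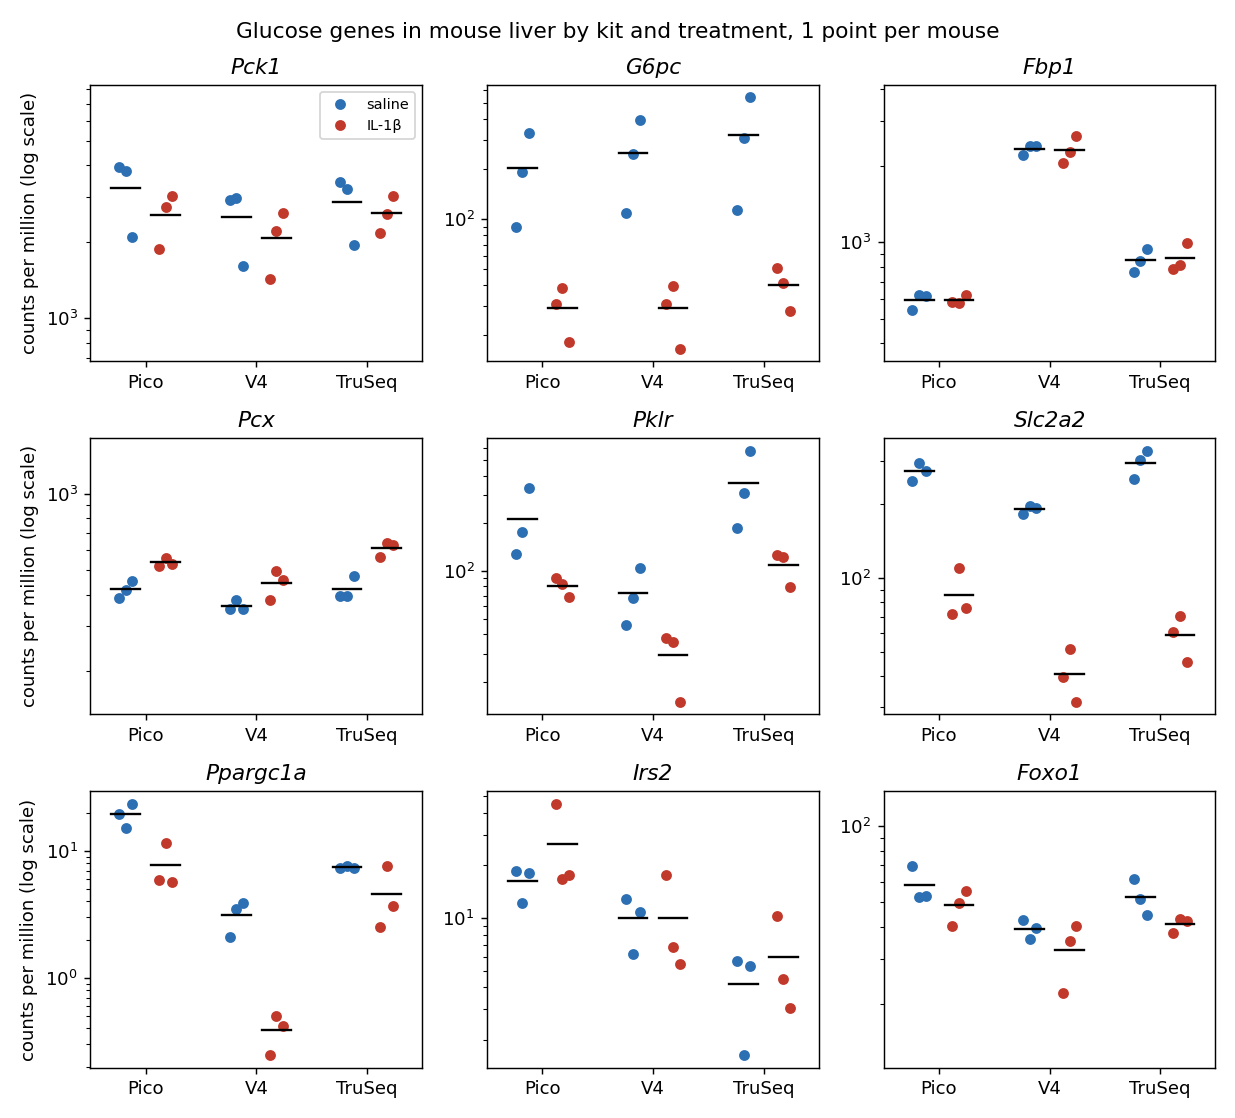
CPM on a log axis for the 9 genes, by kit (horizontal axis) and treatment (blue saline, red IL-1β), with 1 point per mouse and a black line at the arithmetic mean of 3 mice. G6pc, Slc2a2 and Pklr separate by treatment in every kit, whereas Pck1, Fbp1 and Irs2 overlap in every kit.

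G6pc, Slc2a2 and Pklr fell after IL-1β in all 3 kits, and Ppargc1a fell in Pico and V4. Pcx rose in Pico and TruSeq. Pck1, Fbp1, Irs2 and Foxo1 did not pass the threshold in any kit (limma-voom within each kit, Benjamini-Hochberg adjusted p of at most 0.05 over all genes tested). Pico thus had 1 member higher and 4 lower, V4 had 0 and 4, and TruSeq had 1 and 3. Among all genes tested, Pico called 6.78% higher and 10.8% lower, V4 called 3.6% and 7.41%, and TruSeq called 12.3% and 21.8%. The members had a median log2 fold change of -0.333, -0.320 and -0.352 in Pico, V4 and TruSeq, beside -0.116, -0.224 and -0.172 over all genes tested. Scaling by TMM factors, which centre the bulk of genes, raised the median log2 fold change over all genes by 0.131, 0.168 and 0.158 in the same order. With it 52.9% of calls in Pico were higher, against 38.6% with library totals, and the shares were 49.7% against 32.7% in V4 and 50.9% against 36% in TruSeq, while the members' medians became -0.20, -0.16 and -0.19.

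**Figure D2:**
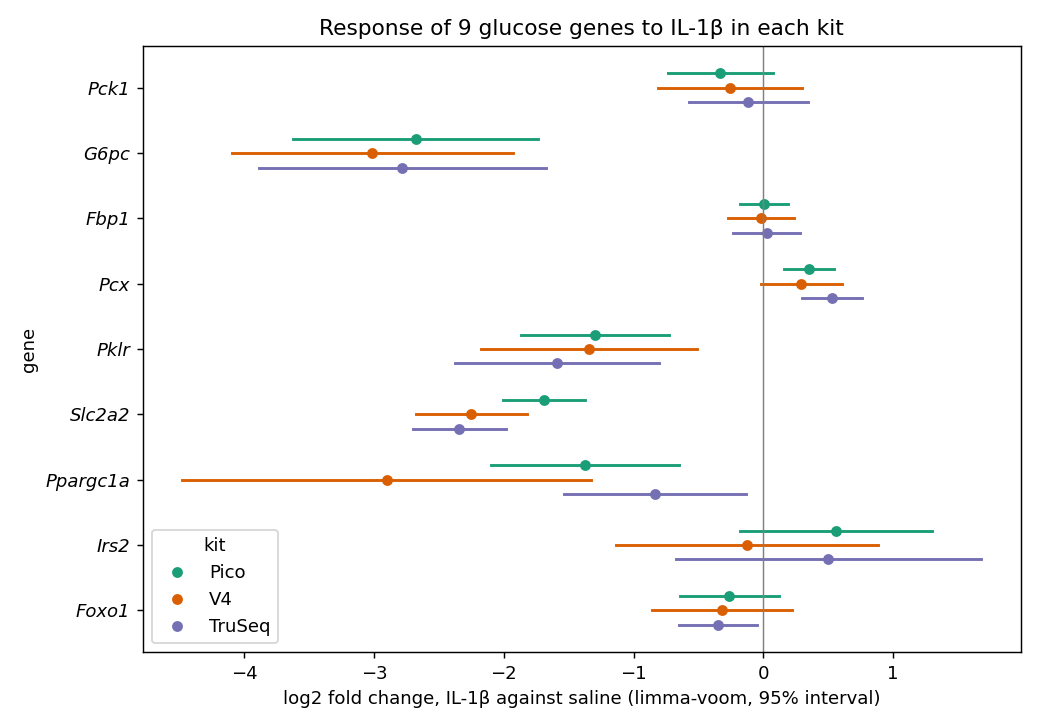
Log2 fold change of IL-1β against saline for the 9 genes (rows) in Pico (green), V4 (orange) and TruSeq (purple), points with 95% intervals from limma-voom, 3 mice per group. Intervals of G6pc, Slc2a2, Pklr and Ppargc1a lie below 0 in every kit, and those of Pck1, Fbp1 and Irs2 include 0 in every kit.

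Pcx, which carboxylates pyruvate to oxaloacetate in mitochondria (chromosome 19, 4510472 to 4621752 in mm9, plus strand), was the only member to rise. In TruSeq the IL-1β libraries held 6967, 7874 and 7780 reads against 5006, 5055 and 6119 in saline, with no overlap. Pico gave 2105, 2255 and 2128 against 1587, 1716 and 1876, again without overlap. The rise was 1.44-fold in TruSeq (log2 0.53, SE 0.10, adjusted p = 0.00338) and 1.28-fold in Pico (log2 0.35, SE 0.09, adjusted p = 0.0114). V4 gave 4644, 5999 and 5487 reads against 4210, 4615 and 4352, which overlapped, for a log2 difference of 0.29 (95% interval -0.02 to 0.60, adjusted p = 0.231). The call in Pico was lost without mouse I9582 (adjusted p = 0.079), without mouse U9574 (0.0625) and in 1 fit of all 18 libraries (0.0809), whereas V4 passed with DESeq2 (0.47, adjusted p = 0.0444) and in that 1 fit (0.043).

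Pck1 (chromosome 2, 172978549 to 172984774, plus strand) converts oxaloacetate to phosphoenolpyruvate and was the most abundant member per kilobase in 2 of the kits. TruSeq counted 26840, 31703 and 37654 reads after IL-1β and 43446, 41187 and 24923 after saline. The lowest count of the 6 belonged to mouse U9576, and the other saline mice stood above all IL-1β mice. V4 gave 17365, 26477 and 31433 against 35036, 35942 and 19917 reads, and Pico 7562, 11006 and 12227 against 16050, 15598 and 8604. In both, mouse I9579 was lowest, and mouse U9576 fell among the IL-1β mice. Log2 differences were -0.33 in Pico (95% interval -0.74 to 0.07), -0.26 in V4 (-0.82 to 0.30) and -0.12 in TruSeq (-0.58 to 0.34), with adjusted p of 0.275, 0.594 and 0.692. Without mouse U9576 the difference in Pico became -0.63 and passed the threshold (adjusted p = 0.0249), and in V4 and TruSeq it became -0.55 and -0.38 without passing.

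Fbp1 (chromosome 13, 62966113 to 62989642, minus strand), which removes a phosphate from fructose-1,6-bisphosphate, varied least of the 9 over the 18 libraries (root mean square deviation 0.108 on the log2 scale). TruSeq held 9732, 10073 and 12370 reads after IL-1β and 9696, 10776 and 12058 after saline, and treatments overlapped in every kit. Its log2 fold change was 0.00 in Pico (95% interval -0.18 to 0.19), -0.02 in V4 (-0.27 to 0.23) and 0.02 in TruSeq (-0.24 to 0.29). These intervals leave out changes the size of those of Slc2a2 or G6pc.

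G6pc (chromosome 11, 101228875 to 101239217, plus strand) encodes the catalytic subunit of glucose-6-phosphatase, the last step before glucose release, and had the largest fall of the members in Pico, V4 and TruSeq. TruSeq counted 634, 509 and 347 reads in mice I9579, I9582 and I9583, and 1445, 3960 and 6964 in mice U9574, U9575 and U9576. V4 counted 376, 475 and 199 against 1304, 2985 and 4874. Pico counted 124, 155 and 73 against 365, 788 and 1365. Every IL-1β library lay below every saline library of its kit, and within saline the 3 kits ranked the mice alike. The fall was 6.41-fold in Pico (log2 -2.68, SE 0.45, adjusted p = 0.000439), 8.07-fold in V4 (log2 -3.01, SE 0.49, adjusted p = 0.00329) and 6.87-fold in TruSeq (log2 -2.78, SE 0.49, adjusted p = 0.0020). The highest saline mouse held 3.64 to 4.74 times the CPM of the lowest, and the 95% interval in TruSeq ran from -3.88 to -1.68. In Pico the call was lost when 1 fit took in all 18 libraries (adjusted p = 0.0969) and in edgeR with robust priors (adjusted p = 0.0731).

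Pklr (chromosome 3, 88940064 to 88950706, plus strand) encodes the liver pyruvate kinase, which acts against Pcx and Pck1 in the glycolytic direction, and it fell as well. TruSeq reads were 1558, 1517 and 982 after IL-1β against 2364, 3955 and 7388 after saline, Pico reads were 364, 335 and 275 against 521, 731 and 1383, and V4 reads were 457, 431 and 180 against 552, 822 and 1295. No kit showed overlap, and mouse U9576 was highest in each. Falls were 2.46-fold in Pico (log2 -1.30, SE 0.27, adjusted p = 0.00264), 2.54-fold in V4 (log2 -1.34, SE 0.38, adjusted p = 0.0444) and 3.01-fold in TruSeq (log2 -1.59, SE 0.35, adjusted p = 0.00654). The V4 call was lost in 9 of 14 alternatives, including without each IL-1β mouse in turn (adjusted p 0.063 to 0.173), without mouse U9575 (0.135) or without U9576 (0.136). The Pico call was lost without mouse I9582 (0.0815) or I9583 (0.0756), in edgeR with robust priors (0.171) and in 1 fit of 18 libraries (0.158), and that of TruSeq without I9583 (0.0546) and in edgeR with robust priors (0.0933). Exons of Pklr share 711 bases with Hcn3 on the opposite strand, which the unstranded V4 reads cannot separate, and Hcn3 itself held 0 to 16 reads per library.

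Slc2a2 (chromosome 3, 28596825 to 28627278, plus strand), the main glucose transporter of hepatocytes, fell in every kit without overlap between treatments. TruSeq counted 752, 870 and 568 reads after IL-1β and 3226, 3871 and 4257 after saline. V4 counted 483, 623 and 379 against 2198, 2389 and 2382, and Pico 289, 444 and 306 against 1013, 1213 and 1136. The saline mice lay within 1.08 to 1.30 times of each other in the 3 kits, and the highest IL-1β library of each kit was far below the lowest saline library. Slc2a2 fell 3.23-fold in Pico (log2 -1.69, SE 0.15, adjusted p = 8.07e-07), 4.76-fold in V4 (log2 -2.25, SE 0.19, adjusted p = 6.74e-05) and 5.07-fold in TruSeq (log2 -2.34, SE 0.16, adjusted p = 9.80e-06). It kept its call under all 14 alternatives in each kit, which no other member did. In whole tissue, fewer hepatocytes and less RNA per hepatocyte cannot be told apart from the level of 1 gene. Among other genes of hepatocytes in the same libraries, Fbp1 stood at log2 -0.02 to 0.02. Of 6 hepatocyte markers, 5, 3 and 3 fell in Pico, V4 and TruSeq, and 1 rose in each. Alb (log2 -0.43 to -0.61) and Cps1 (-0.65, -1.06 and -0.93) fell by less than Slc2a2. The marker that rose was Tat (1.14, 0.98 and 1.28 in Pico, V4 and TruSeq).

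Ppargc1a (chromosome 5, 51845488 to 51958964, minus strand), a coactivator of the gluconeogenic programme, was scarce, and its values rest on few reads. Pico counted 24, 46 and 23 reads after IL-1β against 80, 62 and 97 after saline, and V4 counted 3, 6 and 5 against 25, 42 and 48. Neither kit showed overlap. TruSeq counted 31, 94 and 46 against 92, 98 and 94, where mouse I9582 fell among the saline mice. The fall was 2.59-fold in Pico (log2 -1.37, SE 0.34, adjusted p = 0.00944) and 7.47-fold in V4 (log2 -2.90, SE 0.72, adjusted p = 0.0254), and the TruSeq difference of -0.84 (SE 0.31) had an adjusted p of 0.0664. Without mouse I9582 the TruSeq difference became -1.27 (adjusted p = 0.00754), and it also passed with a filter of 10 counts in 3 libraries (0.0483). The Pico call was lost without mouse I9579 (0.0821), mouse I9583 (0.0803) or mouse U9576 (0.0509), and that of V4 without any of the IL-1β mice (0.0707 to 0.0935) or without mouse U9575 (0.0773).

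Foxo1 (chromosome 3, 52072259 to 52154031, plus strand) held 469, 532 and 523 TruSeq reads after IL-1β and 785, 662 and 572 after saline, without overlap. Its log2 differences were -0.26 in Pico (95% interval -0.65 to 0.12, adjusted p = 0.379), -0.32 in V4 (-0.86 to 0.22, adjusted p = 0.488) and -0.35 in TruSeq (-0.65 to -0.05, adjusted p = 0.0693). Pico counts of 163, 201 and 225 against 284, 217 and 219 overlapped, as did V4 counts of 268, 424 and 488 against 513, 436 and 489. Without mouse U9576 the TruSeq difference was -0.47 and passed the threshold (adjusted p = 0.0321), as it did with a filter of 10 counts in 3 libraries (0.0478). On the opposite strand an annotated transcript, RP24-337A16.1, overlaps 12.1% of the Foxo1 exons, which bears on V4 only.

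Irs2 (chromosome 8, 10986980 to 11008458, minus strand), the insulin receptor substrate, varied between the mice of a treatment. Pico counted 182, 67 and 71 reads after IL-1β and 76, 50 and 75 after saline, V4 214, 82 and 66 against 154, 75 and 134, and TruSeq 128, 55 and 38 against 72, 21 and 68. Mouse I9579 was the highest of the 6 in all 3 kits, and the other IL-1β mice lay within the saline range except in 1 V4 library. Log2 differences were 0.56 in Pico (95% interval -0.18 to 1.30), -0.13 in V4 (-1.14 to 0.88) and 0.50 in TruSeq (-0.67 to 1.67), with adjusted p of 0.321, 0.887 and 0.527. The difference in Pico passed in edgeR with TMM factors (0.83, adjusted p = 0.0057, and 0.00666 with robust priors), where the plain fit gave all genes of a level the same spread, so that its p does not reflect the spread of Irs2 itself. It was 0.096 in limma-voom without mouse I9579 (adjusted p = 0.855). The V4 difference turned positive with TMM factors.

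Groups did not overlap for 5 members in Pico, 4 in V4 and 5 in TruSeq. Among genes averaging 20 reads or more, 46.5%, 39.5% and 62% did not overlap in these kits, so non-overlap by itself was common.

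Enzymes that oppose each other at 2 substrate cycles were compared as a log2 ratio of counts within a library, which needs no library total. The ratio of Fbp1 to Pfkl, the liver phosphofructokinase, differed between treatments by 0.21, 0.12 and 0.33 in Pico, V4 and TruSeq, with exact two-sided permutation p of 0.6, 0.7 and 0.1, the last being the smallest that 3 against 3 mice allow. In TruSeq it was 5.26, 5.06 and 5.06 in mice I9579, I9582 and I9583 against 4.67, 4.99 and 4.73 in mice U9574, U9575 and U9576, without overlap, and the groups overlapped in the other kits. Pck1 to Pklr differed by 0.96, 1.08 and 1.47 with exact permutation p of 0.3, 0.5 and 0.2, and its groups overlapped in every kit. Its lowest value of the 6 mice came from mouse U9576 in each kit (2.64 in Pico, 3.94 in V4 and 1.75 in TruSeq).

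**Figure D3:**
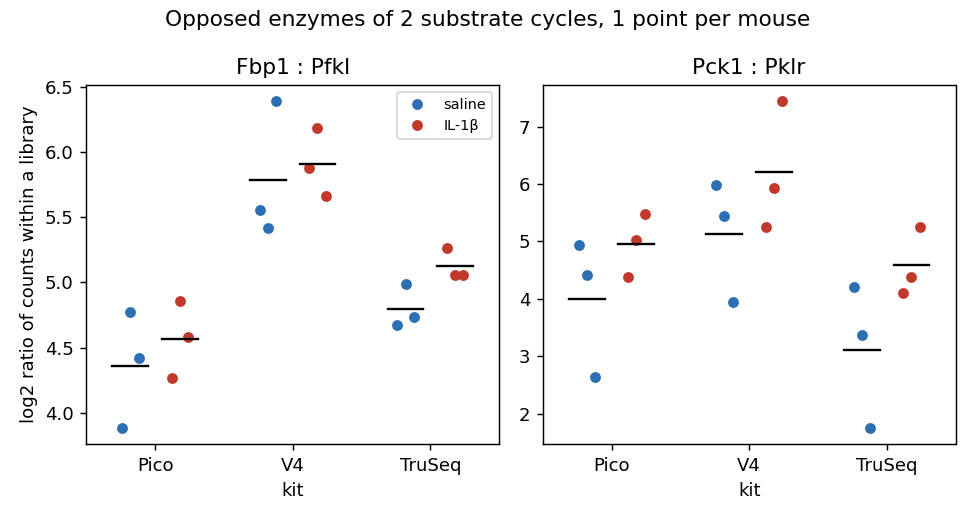
Log2 ratio of the counts of opposed enzymes within each library, by kit and treatment, with 1 point per mouse (blue saline, red IL-1β) and a black line at the mean of 3. Fbp1 to Pfkl separates by treatment in TruSeq alone, while Pck1 to Pklr overlaps in every kit.

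For most members the mice of a group differed more than the kits did within a mouse. For G6pc in saline the SD of the mouse means was 1.0 on the log2 scale, against 0.118 between kits within a mouse after centring each kit. For Pklr these were 0.698 and 0.124, for Pck1 0.489 and 0.0462, and for Irs2 in IL-1β mice 0.776 and 0.133. Slc2a2 in saline had little spread of either kind, 0.115 between and 0.0864 within mice, and in saline Ppargc1a (0.159 against 0.268) and Pcx (0.0829 against 0.101) varied less between mice than within them. In all 3 kits mouse U9576 combined the highest G6pc and Pklr of its group with the lowest Pck1, and mouse I9579 the highest Irs2 with the lowest Pck1 and Foxo1. Of the 9 members, 3 ranked the IL-1β mice alike in the 3 kits, and 3 did so for the saline mice.

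**Figure D4:**
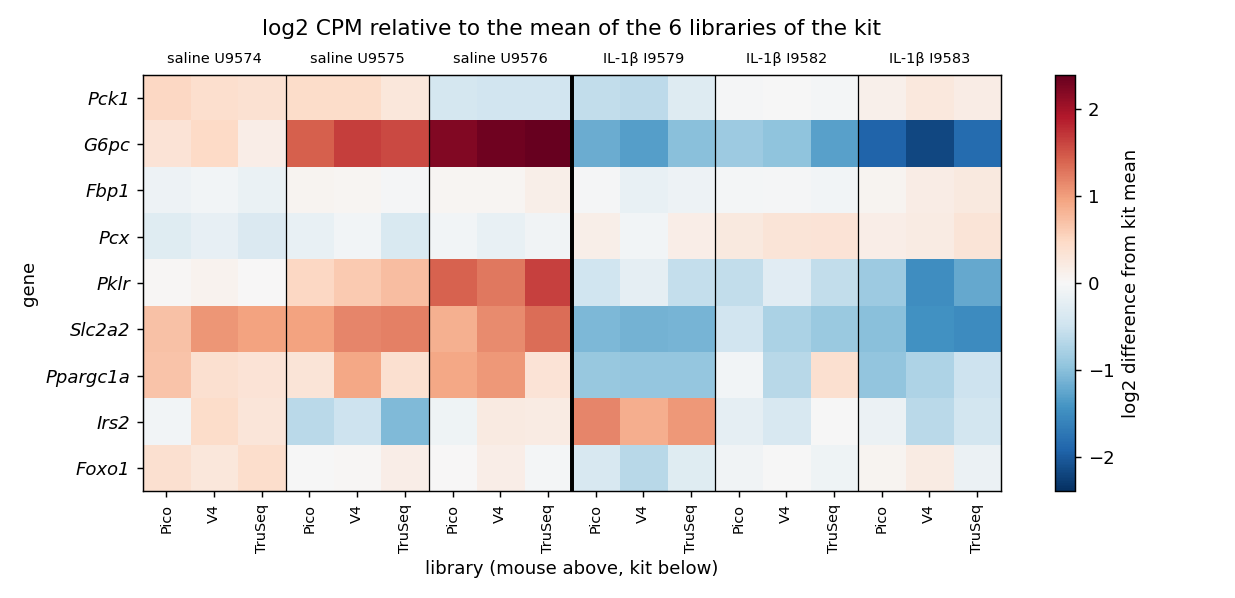
Log2 CPM of the 9 genes (rows) in 18 libraries (columns, grouped by mouse with the kit below) relative to the mean of the 6 libraries of that kit. For G6pc, Slc2a2, Pklr and Pck1 the 3 kits of each mouse lie on the same side of the kit mean. Other members differ between kits in some mice, such as Ppargc1a in I9582. Saline U9576 is highest for G6pc and Pklr, and IL-1β I9579 is highest for Irs2.

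Whether kits differed in the response was tested with an interaction term in limma-voom. The adjusted p was at most 0.05 for 0 of 17207 genes between Pico and TruSeq, 0 of 16395 between Pico and V4 and 0 of 17147 between V4 and TruSeq, or 0% in each, and thus for 0 of the 9 members. At an unadjusted p under 0.05 there were 945, 900 and 1090 genes, which is 5.49%, 5.49% and 6.36%, with 1 member in each pair. edgeR called 0 genes in each pair, and DESeq2 called 4, 14 and 62, none of them a member. For Slc2a2 the log2 fold change in Pico minus that in TruSeq was 0.65 (unadjusted p = 0.0122, adjusted p = 0.90), and minus that in V4 it was 0.56 (95% interval 0.02 to 1.10, adjusted p = 0.89). For Ppargc1a the V4 value minus the TruSeq value was -2.06 (95% interval -3.58 to -0.55, adjusted p = 0.545), with at most 6 reads in the IL-1β libraries of V4. For G6pc the interval of the difference between V4 and TruSeq was -2.04 to 1.58. This fit did not pair the libraries of a mouse across kits, so the interval also holds the spread between mice. Kit differences of that size could not be detected by this fit, and a paired difference for single members was not tested.

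The single gene with the most similar pattern to each member, given here for 8 of them, was sought among 8960 genes averaging 20 reads or more in every kit, by the root mean square difference of kit-centred log2(CPM + 1) over the 18 libraries. The closest to G6pc was Srebf1, the insulin-responsive regulator of fat synthesis (0.352, where G6pc itself deviated by 1.54). Srebf1 counted 420, 515 and 509 TruSeq reads after IL-1β against 2033, 4233 and 4624 after saline. Slc2a2 was closest to the tryptophan-degrading Ido2 (0.189 of 1.07), and Ppargc1a to the cytochrome P450 gene Cyp2a5 (0.296 of 0.692). Pck1 was closest to the clock gene Cry2 (0.164 of 0.374), Foxo1 to the organic anion transporter Slc22a7 (0.142 of 0.257), Irs2 to Pnrc1 (0.316 of 0.586), Pcx to the translation factor Eif1 (0.0875 of 0.226) and Fbp1 to Lcat (0.086 of 0.108). For Fbp1 the difference was nearly as large as its own deviation. The second closest gene was nearly as near for Pcx (0.0896), Fbp1 (0.0903), Foxo1 (0.151) and Slc2a2 (0.202), so their closest gene was hardly set apart.

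Other genes of the pathway were taken from 5 lists. As a yardstick for their counts, 12.3% of all genes tested with TruSeq rose and 21.8% fell. These shares were smaller with Pico (6.78% and 10.8%) and smallest with V4 (3.6% and 7.41%). They include genes with very few reads, which are hard to call. Whether a list, or a set of marker genes below, held more calls than such shares was not tested. Of 20 genes for further gluconeogenic steps and shuttles, 3 rose and 11 fell in TruSeq, 3 and 9 of 19 tested in Pico, and 1 and 7 in V4. With TMM factors these were 3 and 7, 3 and 8, and 1 and 5. The 12 calls in Pico became 6 without mouse I9582, 5 without I9583 and 4 in 1 fit of 18 libraries, and the 8 in V4 became 5, 4 and 3 without mice I9579, I9582 and I9583 and 3 without U9575. Slc37a4, which carries glucose-6-phosphate to G6pc inside the endoplasmic reticulum, fell in all 3 kits (log2 -1.14, -1.40 and -1.26 in Pico, V4 and TruSeq), with 1029, 1294 and 1551 TruSeq reads against 2634, 3493 and 3387. Gpd1, which brings glycerol carbon into the pathway, also fell in each (-0.95, -0.93 and -0.91), although its V4 call was lost without mouse I9583 (adjusted p = 0.057) or U9575 (0.0593). Ldha, a lactate dehydrogenase subunit, rose in all 3 kits (1.10, 0.88 and 1.19), with 15238, 13892 and 14883 TruSeq reads against 6264, 6596 and 6997. The aspartate aminotransferase Got1 rose in Pico and TruSeq (0.59 and 0.83), and its V4 value was 0.57 (adjusted p = 0.195, and 0.0448 in edgeR and 0.0439 in DESeq2). Both calls of Got1 were lost when any mouse other than I9579 was left out (adjusted p 0.0734 to 0.293 in Pico and 0.0564 to 0.133 in TruSeq), that of Pico also in 1 fit (0.435), and that of TruSeq with thinned reads (0.0526) and in edgeR with robust priors (0.112). Most of these enzymes serve glycolysis as well.

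Of 21 genes for glycolysis and glucose uptake, 3 rose and 9 fell in TruSeq, 2 and 6 in Pico and 1 and 6 in V4. With TMM factors these were 4 and 9, 3 and 5, and 1 and 3. The 7 calls in V4 became 3, 4 and 2 without mice I9579, I9582 and I9583, and 4 and 2 without U9574 and U9575, and the 8 in Pico became 4 in 1 fit. Pfkfb3, which makes the activator of phosphofructokinase, rose in all 3 kits (log2 1.15, 1.04 and 1.38). Its V4 call (adjusted p = 0.0495) was lost when any single mouse was left out (0.0563 to 0.153) and in 1 fit (0.115), its Pico call without mouse I9579 (0.0641) or U9576 (0.0674) and in 1 fit (0.0775), and its TruSeq call in edgeR with robust priors (0.0704). Its relative Pfkfb2 rose in Pico and TruSeq (1.23 and 1.19). Pdk2, an inhibitory kinase of pyruvate dehydrogenase, fell in each kit (-1.72, -2.19 and -2.11), with 246, 283 and 258 TruSeq reads against 1095, 1198 and 1200. The fructose transporter Slc2a5 fell from 103, 89 and 79 to 5, 9 and 16 reads in TruSeq (log2 -3.20), and its log2 value in V4 was -2.41. It had 0 reads in the Pico IL-1β libraries against 9, 6 and 32 in saline. That is at least 15.4-fold lower at a floor of 3 reads over the group, a bound that leaves out the spread between libraries.

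Of 16 genes of glycogen metabolism, 3 rose and 8 fell in TruSeq, 0 and 7 in Pico and 0 and 5 in V4, where 1 fit of 18 libraries called 8. Ppp1r3b, which targets protein phosphatase to glycogen, fell in each kit (log2 -1.74, -1.94 and -1.83), with the Pico call lost without mouse I9582 (adjusted p = 0.0546) and in edgeR with robust priors (0.0942). TruSeq counted 1526, 1675 and 1235 reads of it against 2808, 6897 and 8082. The muscle glycogen synthase Gys1 and Pgm1 rose in TruSeq (0.77 and 0.76) from low levels of 46 and 50 reads on average. Thinning to the Pico depth ended both calls (adjusted p = 0.168 and 0.228), as did 1 fit (0.108 and 0.191). The Gys1 call was also lost without mouse U9574 (0.0826) or U9576 (0.0788), and that of Pgm1 without I9579 (0.0702) or U9575 (0.0731). Their more abundant relatives fell in Pico, V4 and TruSeq, Gys2 by log2 -1.42, -1.43 and -1.48 and Pgm2 by -0.55, -0.60 and -0.60. In TruSeq saline libraries these held 3762 and 2803 reads on average.

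Of 24 genes of insulin and glucagon signalling, 4 rose and 7 fell in both Pico and TruSeq, and 2 rose and 3 fell in V4. With TMM factors 5 rose and 6 fell in Pico, 6 and 7 in TruSeq, and 3 and 1 in V4, so that the balance turned in V4. The 5 calls in V4 became 3 without mouse I9579, I9582 or U9574, 2 without U9575 and 11 in 1 fit. Irs1 fell in each kit, with log2 -2.77 in Pico and -2.71 in TruSeq, where reads went from 251, 391 and 223 to 37, 46 and 41. In V4 it went from 16, 44 and 23 reads to 0. That is at least 27.5-fold lower at a floor of 3 reads over the group, a bound that leaves out the spread between libraries. Igfbp1, a secreted binding protein that insulin represses, rose in all 3 kits (log2 2.44, 2.24 and 2.38), with 3877, 1465 and 1123 TruSeq reads against 492, 150 and 670. Mouse I9579 was again highest, as for Irs2. The Igfbp1 calls were lost without mouse U9574 in each kit (adjusted p = 0.0508, 0.0621 and 0.0519), without U9575 in V4 and TruSeq (0.0896 and 0.0501), without I9582 in Pico and V4 (0.0579 and 0.0628), in edgeR with robust priors in each (0.161, 0.139 and 0.0933) and in 1 fit in Pico (0.129). Socs3, an inhibitor of cytokine and insulin receptors, rose in Pico and TruSeq (1.99 and 2.35) and stood at 2.11 in V4 (adjusted p = 0.0552, passing in 6 of 14 alternatives). Its Pico call was lost without mouse I9582 (0.0553), U9575 (0.0644) or U9576 (0.062) and in 1 fit (0.274), and its TruSeq call in edgeR with robust priors (0.0546). Prkaa2, a catalytic subunit of AMP-activated kinase, fell in Pico and TruSeq (-0.96 and -1.14).

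Of 27 transcriptional regulators, 5 rose and 10 fell in TruSeq, 4 and 10 in Pico, and 1 and 7 of 26 tested in V4. With TMM factors 7 rose and 9 fell in TruSeq. The 8 calls in V4 became 5, 2 and 4 without mice I9579, I9582 and I9583, 2 without U9575 and 5 with TMM factors. Ppargc1b, the relative of Ppargc1a, fell in each kit, with 5, 10 and 13 TruSeq reads against 61, 59 and 45. Without mouse I9582 its calls in Pico (adjusted p = 0.055) and V4 (0.0526) were lost, and that in V4 also in DESeq2 (0.239) and in edgeR with robust priors (0.0787). Esrra, a nuclear receptor that works with both coactivators, fell in each kit (log2 -2.12, -1.25 and -1.57), with the V4 call lost without mouse I9582 (0.0672), I9583 (0.0709) or U9575 (0.0633). Crem, a cAMP-responsive regulator, rose in each (1.49, 1.29 and 1.45). The median log2 fold change of the 5 lists ranged from -0.07 to -0.77 over the kits, and with TMM factors those of insulin signalling and of the regulators became 0.09 and 0.02 in TruSeq.

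**Figure D5:**
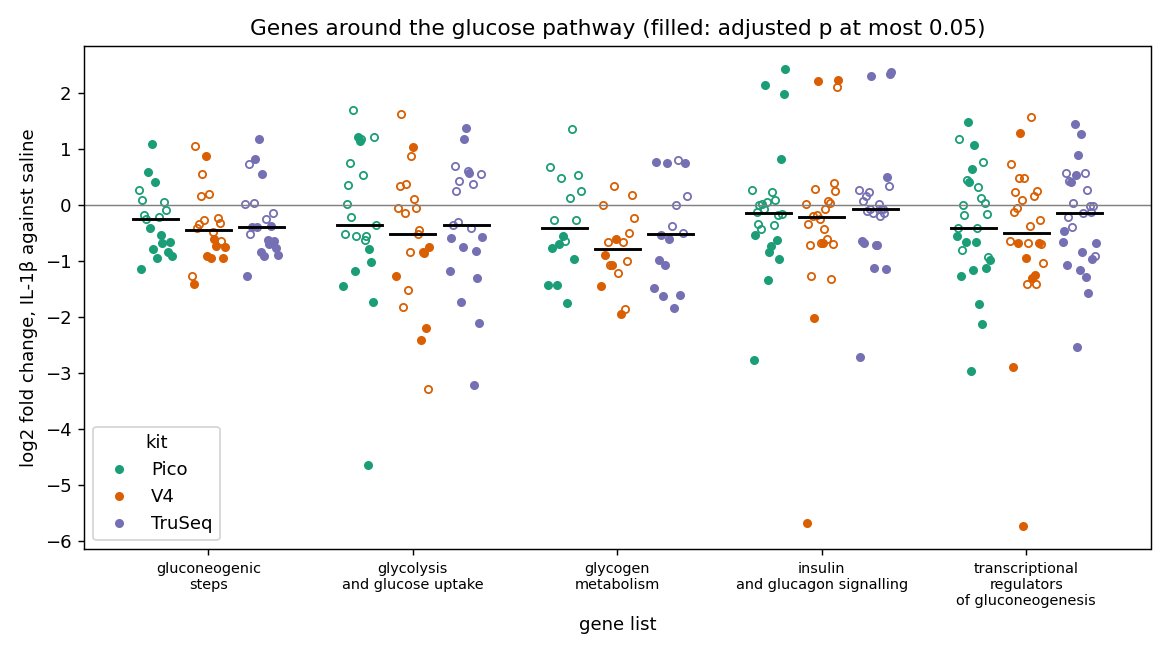
Log2 fold change of IL-1β against saline for each gene of the 5 lists, in Pico (green), V4 (orange) and TruSeq (purple), with filled points at an adjusted p of at most 0.05 and black lines at the median. Medians lie between -0.07 and -0.77, and the points below -4 are genes with libraries at 0 after IL-1β, whose size depends on the fit.

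Marker genes were summed to check the tissue. All 6 hepatocyte markers were detected, and 5, 3 and 3 of them fell in Pico, V4 and TruSeq while 1 rose in each. Their sum in TruSeq was 64400 to 71000 CPM after IL-1β and 87300 to 105000 after saline. Alb made up most of this sum, which therefore mainly follows 1 gene, and Alb fell in each kit (log2 -0.43, -0.56 and -0.61). Neutrophil markers rose, 5 of 5 tested in Pico, 4 of 6 in V4 and 5 of 7 in TruSeq, while Mpo was not listed in any kit and Ly6g only in TruSeq. Summed CPM of neutrophil markers was 36.3 to 44 after IL-1β against 0.971 to 5.14 after saline with Pico, 35 to 64.6 against 2.07 to 5.16 with V4, and 40.6 to 82.5 against 3.28 to 6.08 with TruSeq. Kupffer cell markers fell for 4 of 8 in Pico, 2 of 8 in V4 and 5 of 8 in TruSeq, where 1 rose and the sum was 67.3 to 97.7 CPM after IL-1β against 136 to 229. Sinusoidal endothelial markers fell for 3, 2 and 5 of 8 and rose for 2, 0 and 1, and stellate cell markers fell for 3, 1 and 3 of 7. Cholangiocyte markers rose for 1, 0 and 2 of 5 and fell for 0, 0 and 1, and lymphocyte markers were called only in TruSeq, where 2 of 6 fell. The part of these shifts in the values of the 9 genes was not tested. Pancreas and kidney also express several members, and their markers Ins1, Ins2, Gcg and Aqp2 were not listed in any kit, with kidney markers at no more than 0.081 summed CPM, and the pancreas marker Cela1 at 0.745 to 19.1 CPM fell in TruSeq.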

How the data were processed

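The authors aligned the reads of each library to mm9 with GSNAP, removed ribosomal reads, resampled them to an equal depth within each kit and deposited counts, which are whole reads per gene that follow annotated junctions (sense strand for Pico and TruSeq, both strands for V4). The 3 tables were normalized separately. Deposited gene coordinates are padded by 250 to 298 bases, and GENCODE coordinates on mm9 were used. Totals were 4024632 to 12858237 reads per library.

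Counts were tested with limma-voom (limma 3.58.1, R 4.3.3) scaled to library totals, for genes with a read in any library of the kit. P-values were adjusted by Benjamini-Hochberg. Alternatives were edgeR 4.0.16 (also with robust priors, added after the data were seen), DESeq2 1.42.0, TMM factors, a filter of 10 counts in 3 libraries, no filter, thinning to 4024632 reads, 1 fit of 18 libraries, other thresholds and leaving out each mouse. Ratios added 1 read to each count and used exact permutation tests. The limma-voom fit within each kit was also run on simulated counts with known changes. Its outcome there is not reported here, and no result rests on it. The RNA of each mouse entered all 3 kits, so the mouse number pairs libraries across kits, and it served as a replicate block there. No 2 libraries of a group agreed within sampling noise (chi-square per degree of freedom of at least 7.04).

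Members and lists were chosen with earlier results of these data known. Genes named are the 9 members, Pfkl, in each list the 2 largest rises and 2 largest falls called in TruSeq, and the closest gene to each member. Some results under this rule are not reported here. Hcn3, Gys2, Pgm2 and the marker genes were named after their values were seen. Upstream sequences are RefSeq's (GRCm38.p6). Which run of the repeated Pico preparation the table holds is not stated in the labels.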

Additional observations from a re-analysis of the deposited data

How the results depend on the processing

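Of the members, Slc2a2 kept its call in all 3 kits, and G6pc in V4 and TruSeq, under all 14 alternatives. Members called in Pico went from 5 to 2 in 1 fit of 18 libraries and to 3 to 5 when 1 mouse was left out (3 without mouse I9582 or I9583), and in V4 from 4 to 2 at a threshold of 0.01 and to 2 to 4 without 1 mouse (2 without any of the IL-1β mice or mouse U9575). The number of all genes called in Pico, 3179, became 2110 in 1 fit of 18 libraries, 1884 at 0.01 and 1765 to 2603 without 1 mouse, the lowest without mouse I9582. In V4, 1986 became 4646, 764 and 908 to 2093, the lowest without mouse U9575, and 2982 at a threshold of 0.1. In TruSeq, 6614 became 4226 in 1 fit and 4081 at 0.01. These settings change the libraries or the threshold, and other causes were not tested.

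Changes of sign touched only values that were not called. With edgeR, with or without robust priors, the V4 log2 fold changes were 0.16 for Fbp1, 0.15 for Irs2 and 0.0047 for Pfkl, and that of Pck1 in TruSeq 0.014. With DESeq2 they were 0.163, 0.156, 0.014 and 0.014, and with TMM factors in voom 0.147, 0.049, 0.031 and 0.042. In these data TMM factors in voom raised the median log2 fold change over all genes by 0.168 in V4 and 0.158 in TruSeq. Without 1 mouse, Fbp1 in Pico, V4 and TruSeq ranged from -0.060 to 0.039, from -0.11 to 0.061 and from -0.082 to 0.099, Irs2 from -0.64 to 0.20 in V4 and -0.074 to 0.88 in TruSeq, Pck1 from -0.38 to 0.037 in TruSeq, and Pfkl from -0.42 to 0.064, Gys1 from -0.30 to 0.43 and Pgm1 from -0.13 to 0.99 in V4. The ratio of Fbp1 to Pfkl ranged from -0.026 to 0.42 in Pico (below 0 without mouse U9574) and -0.064 to 0.42 in V4 (below 0 without mouse I9582 or mouse U9575).

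Between kits the replicate block by mouse left 0 members called in each pair, as without it, and called 10 genes in all between V4 and TruSeq. In 1 fit of treatment over 18 libraries it called 6 members, as did the fit without the block, although the latter takes the 3 libraries of a mouse as independent. The fit without the block called Foxo1 (limma-voom adjusted p = 0.028), which no separate kit did. The block applied 1 correlation of 0.066 to all genes, so it too took these libraries as nearly independent. For G6pc in saline the SD was 1.0 between mice and 0.118 within them. The equal counts therefore do not show that the calls hold between mice. Within a kit no paired analysis was possible because each mouse received 1 treatment. Low read numbers limit Ppargc1a and the spread between mice limits Irs2, and in the separate fits V4 called the fewest genes.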

Other observations

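Cebpb, a regulator of gluconeogenic and acute-phase genes within the regulator list, rose in Pico and TruSeq and had a lower mean in V4 that did not pass the threshold. After IL-1β it rose in Pico (1831, 1736 and 1267 reads against 872, 595 and 878, log2 1.07, adjusted p = 0.000133 by limma-voom) and in TruSeq (419, 318 and 416 against 179, 121 and 197, log2 1.27, adjusted p = 0.000748). In V4 it held 375, 386 and 292 reads against 1696, 1387 and 341, a log2 difference of -1.40 (adjusted p = 0.129, and 0.00187 without mouse U9576), with mouse U9576 far below the other saline mice. In 1 fit of 18 libraries the rises in Pico and TruSeq lost their calls (adjusted p = 0.0865 and 0.15) and the V4 difference passed (0.035), as it did in edgeR (0.00731). The difference in response between Pico and V4 was 2.48 (adjusted p = 0.445 by limma-voom, 0.279 by edgeR and 0.0693 by DESeq2), and V4 minus TruSeq was -2.68 (adjusted p = 0.41 by limma-voom, 0.241 by edgeR and 0.0048 by DESeq2). Both passed by limma-voom without mouse U9576 (0.000138 and 0.000614).

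A few genes ranked the saline mice alike in TruSeq. Mouse U9574 was lowest and U9576 highest for G6pc, Pklr, Srebf1 and Ppp1r3b, of which Srebf1 counted 2033, 4233 and 4624 reads and Ppp1r3b 2808, 6897 and 8082 in mice U9574, U9575 and U9576. Srebf1 and Ppp1r3b were picked for this after their values were seen.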
